A study of Gossypium hirsutum with 3 samples.

Results

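The 40 genes described here are the AP2/ERF transcription factors (TFs) among the 384 TFs of allotetraploid cotton that were listed as biased between homeologs in leaf, that is, expressed more from one subgenome than its counterpart from the other. Every gene of that list whose family name begins with AP2/ERF was taken. Of these, 36 belonged to the ERF subfamily and 4 to the AP2 subfamily, and 0 carried a RAV label. The A-biased members numbered 23 and the D-biased members 17. The members were chosen by their FPKM against that of their homeolog in these same leaf libraries, so they are the higher homeologs of their pairs by selection, and all their levels are given as a description with no test. All 40 identifiers were found among the 70478 genes of each library.

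AP2/ERF proteins are plant TFs named after the AP2 DNA-binding domain. ERF subfamily proteins carry a single copy of it, and in Arabidopsis they include ethylene response factors, which bind GCC-box elements of defence and ethylene-responsive genes, and DREB proteins, which bind dehydration-responsive elements of genes induced by drought and cold. AP2 subfamily proteins carry the domain as a repeat, and in Arabidopsis they include regulators of flower, meristem and embryo development. Many ERF genes respond quickly to wounding, hormones and stress.

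The plants were TM-1, a cultivar of G. hirsutum, whose nucleus holds an A and a D subgenome. True leaves were taken at an age of 20 days from untreated greenhouse plants and made into 3 replicate RNA-seq libraries, which form a single condition. Neither the labels nor the methods say whether the libraries came from separate plants, so the spread between them may be partly technical. Expression was given as FPKM, the number of fragments of a gene scaled to its exon length and to the mapped fragments of the library, so levels can be compared between genes. In whole leaves, fewer cells expressing a gene and less RNA per cell cannot be told apart, and no leaf marker could be checked because the files pair no names with the identifiers. FPKM sums were 941105 to 1012483 per library. FPKM gives no read totals, but among genes below 0.05 FPKM the commonest ratio between libraries was 0.96 (replicate 1 to 2), 0.99 (1 to 3) and 1.04 (2 to 3), held by 63 to 74 genes of 344 to 354 compared.

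The biased AP2/ERF factors ranged in leaf from a mean FPKM of 1.03 to 162, with a median of 10.4 and quartiles of 5.21 and 26.1. The median was 10.1, 9.75 and 11.4 in replicates 1, 2 and 3. By mean FPKM, 21 members were at 10 or more (52.5%) and 19 between 1 and 10, whereas 37.8% of the genes with a mean FPKM of 1 or more and 21.9% of all genes reached 10. The median member stood at the 78.7th percentile of all genes and at the 63.3rd percentile of the genes with a mean FPKM of 1 or more. The latter is the fairer scale, since a pair entered the list only when a homeolog was expressed. FPKM was 1 or more in every library for 38 of the 40 members (95%), against 55% of all genes. The share was 94.8% among genes with a mean FPKM of 1 or more and 96.2% among the other biased TFs. The members were thus close to both, and their share too follows largely from the selection.

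**Figure D1:**
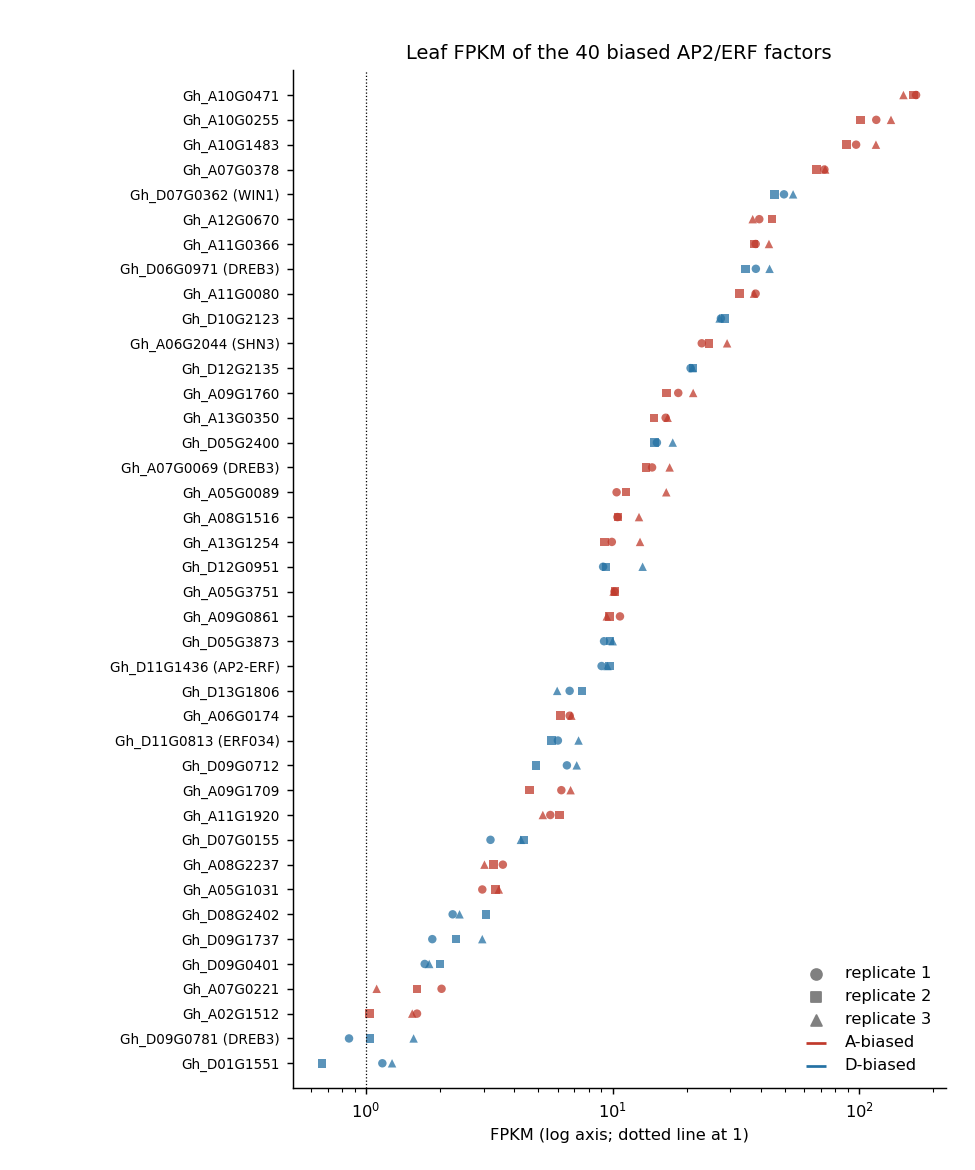
FPKM (log axis) of each of the 40 members in the 3 libraries, ordered by mean FPKM, with the marker shape giving the replicate and the colour the subgenome of bias; names in parentheses are those of the study's network. The members fall from 162 to 1.03 FPKM, 4 of the 5 highest are A-biased, and only the 2 lowest have a library below the dotted line at 1.

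A few members held a large part of the summed FPKM of the 40. The 4 highest, all A-biased ERF genes listed with H3K4me3, held 48.1% of the summed FPKM of the 40 members, and the 9 highest held 69.8%. Among the 344 other biased TFs the 4 highest held 15.9%. They are a much smaller part of a far longer list, so these shares do not show whether the members were more concentrated. Gh_A10G0471 was the highest, with FPKM of 170, 166 and 151 in replicates 1, 2 and 3, and ranked 667th among all genes and 4th among the 384 biased TFs. Its lowest library lay above every library of every other member. Gh_A10G0255 followed at 117, 101 and 135 FPKM, and Gh_A10G1483 at 97.2, 88.9 and 117. This pair overlapped between libraries, although Gh_A10G0255 was the higher one within each of the 3 libraries. All of the top 3 lie on chromosome A10, which alone held 40.5% of the summed FPKM of the members. The next member, Gh_A07G0378, stood at 72.3, 67.1 and 72.8 FPKM, below Gh_A10G1483 and above Gh_D07G0362 with no overlap. The same 4 genes were the highest in each library, and the same 9 were the highest 9.

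Further down, the order was less certain. Of the 39 neighbouring pairs in the order of mean FPKM, 31 overlapped between libraries and 8 did not. Besides the gaps below Gh_A10G0471, Gh_A10G1483 and Gh_A07G0378, the non-overlapping steps were those from Gh_D07G0362 to Gh_A12G0670, from Gh_A11G0080 to Gh_D10G2123, from Gh_A06G2044 to Gh_D12G2135, from Gh_D11G1436 to Gh_D13G1806 and from Gh_A11G1920 to Gh_D07G0155. Between these steps each member overlapped its neighbours in the order, although members further apart in it could be separate.

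Of the members, 10 belonged to the leaf-related co-expression module of the study, and 7 of these were hub TFs, meaning genes whose expression across tissues followed the module closely. By the study's limit for hubs, 23 hubs of the module were found in all, slightly different from the study's own count. The share of the other biased TFs in the module is not given here, so these counts show no excess of AP2/ERF genes. The network gives the 7 AP2/ERF hubs gene names. The module was built from other tissues as well, which were not analysed here. Gh_D07G0362, named WIN1, and Gh_A06G2044, named SHN3, carry the names of Arabidopsis SHINE-clade ERF proteins, which activate cutin and wax synthesis for the cuticle. WIN1 had FPKM of 49.6, 45.4 and 54.0 in replicates 1, 2 and 3, the highest of all D-biased members. SHN3 had 23.0, 24.6 and 29.1. Both genes were thus abundant, at the 95.8th and 91.04th percentile of all genes, and both were highest in replicate 3. Their function in cotton was not tested.

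Of the 3 hubs named DREB3, after stress-responsive activators that bind dehydration-responsive elements, Gh_D06G0971 was the highest, at 38.1, 34.6 and 43.3 FPKM. Gh_A07G0069 stood at 14.5, 13.7 and 17.0. Gh_D09G0781 was close to the limit of expression, at 0.853, 1.04 and 1.56 FPKM. Genes with the same name and module therefore differed 33.7-fold in mean FPKM, and their libraries did not overlap. Gh_D11G0813, named ERF034, had 6.0, 5.64 and 7.28 FPKM, and Gh_D11G1436, named only AP2-ERF, had 9.02, 9.70 and 9.53. The hubs had a median of 15.1 FPKM against 10.2 for the 33 other members, a difference of 0.52 on the log2(FPKM + 1) scale that was 0.50, 0.45 and 0.70 in the 3 libraries. The range of the hubs, from 1.15 to 49.6 FPKM, lay within that of the other members. The 3 module members that were not hubs were all abundant: Gh_A10G0255, given above, Gh_A11G0366 at 38.0, 37.5 and 43.1 FPKM and Gh_D10G2123 at 27.5, 28.5 and 27.2.

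The 4 members of the AP2 subfamily were of moderate level except for Gh_A12G0670, which had FPKM of 39.4, 44.2 and 37.004 in replicates 1, 2 and 3. Gh_D05G3873 had 9.23, 9.78 and 10.01, Gh_A11G1920 had 5.59, 6.09 and 5.21, and Gh_D08G2402 had 2.25, 3.06 and 2.39. Their median was 7.65 FPKM against 10.7 for the 36 ERF members. With 4 genes that spanned 2.57 to 40.2 FPKM, the subfamilies cannot be separated by level.

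Histone marks were listed for 37 of the 40 members from ChIP-seq libraries of the same tissue that were not analysed here. The study called peaks on ChIP-seq replicate 1 only and counted those in the near flanks of a gene too. A listed mark may therefore lie beside the gene. H3K4me3 usually marks the start of transcribed genes, and H3K27me3, set by Polycomb complexes, marks repressed or conditionally expressed genes. H3K4me3 alone was listed for 31 members, both marks for 4 and H3K27me3 alone for 2. Thus 6 of 37 marked members carried H3K27me3 (16.2%), against 79 of 310 other marked TFs (25.5%), a contrast given without a test. The median level was 11.3 FPKM with H3K4me3 alone, 6.27 with both marks and 3.94 with H3K27me3 alone. Members with H3K4me3 alone exceeded the 6 members with H3K27me3 by 1.26 on the log2(FPKM + 1) scale in median, and by 1.26, 1.15 and 1.43 in replicates 1, 2 and 3.

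This gap rested on few genes. WIN1 carried both marks and was nevertheless the 5th highest member. The other members with both marks were Gh_A09G0861, at 10.7, 9.73 and 9.48 FPKM in replicates 1, 2 and 3, the AP2 gene Gh_D08G2402 and Gh_D01G1551, given below. H3K27me3 alone was listed for ERF034 and for Gh_A07G0221, which had 2.02, 1.61 and 1.104. SHN3 is listed with H3K4me3 but drawn with H3K27me3 in the study's picture of the hub TFs. With SHN3 moved to the H3K27me3 group, the gap fell to 0.71. Within the ERF subfamily alone the gap was 0.83. The 3 members without a listed mark were Gh_D05G2400 (15.1, 14.8 and 17.5 FPKM), Gh_D07G0155 (3.20, 4.38 and 4.25) and Gh_A02G1512 (1.61, 1.03 and 1.54), which spread from near the lower end of the list to above its median.

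At the low end, the list reached down to its expression limit, an FPKM of 1 in either homeolog of a pair. The 3 lowest members had a mean FPKM below 1.5, namely Gh_A02G1512, DREB3 gene Gh_D09G0781 and Gh_D01G1551. Above them stood Gh_A07G0221 and Gh_D09G0401, the latter at 1.73, 1.99 and 1.80 FPKM. Gh_D01G1551, just inside the limit, had 1.16, 0.664 and 1.27 FPKM with a mean of 1.03 ± 0.33 (SD, n = 3). It was also the member whose homeolog could be followed, while the homeologs of the other 39 were not analysed here. Its A homeolog Gh_A01G1314 had 0.200, 0.105 and 0.315 FPKM, with a mean of 0.206 ± 0.105 (SD, n = 3). The D gene was higher in each of the 3 libraries, by 5.82, 6.35 and 4.05 times, and the pair did not overlap. Its log2 ratio was 0.75 with 1 added to each mean FPKM and 1.89 with 0.1 added, so the size of the bias at such low levels depends on the constant. This contrast chose the gene and was not tested.

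A-biased members were the more abundant ones. Their median was 12.7 FPKM against 6.72 for the D-biased members, and 15 of 23 A-biased but 6 of 17 D-biased members reached 10 FPKM. A-biased members held 77.2% of the summed FPKM. The medians of A-biased members were 10.7, 11.4 and 16.5 FPKM in replicates 1, 2 and 3, and those of D-biased members 6.70, 7.498 and 7.28, so the direction was the same in each library and the gap was largest in replicate 3. On the log2(FPKM + 1) scale the difference in medians was 0.83, it was 0.55 without replicate 3, and it was 0.40 when the 2 D-biased members with a library below FPKM 1 were left out. Individual levels overlapped widely, from 1.39 to 162 FPKM in A-biased and from 1.03 to 49.6 FPKM in D-biased members. Among the other biased TFs the medians stood the other way round, at 5.003 FPKM for 157 A-biased and 7.06 for 187 D-biased TFs.

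Compared with 3 other families on the same list, the AP2/ERF members had the highest median. It was 10.4 FPKM, against 4.28 for 43 MYB and MYB-related factors, 5.52 for 30 bHLH factors, 5.26 for 23 WRKY factors and 5.97 for all 344 other biased TFs. The remaining families were not summarised. Some stood higher, such as the C2C2-YABBY factors, picked after seeing the data, at 42.2 to 94.7 FPKM. Among the 7 biased TFs with a mean FPKM of 100 or more, 3 were AP2/ERF genes, all of them on chromosome A10. A-biased genes were also the higher ones in median among MYB factors (9.35 against 3.05 FPKM), but not among bHLH (2.85 against 8.69) or WRKY factors (4.22 against 10.9). The families were not tested against each other because genes are not replicates.

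**Figure D2:**
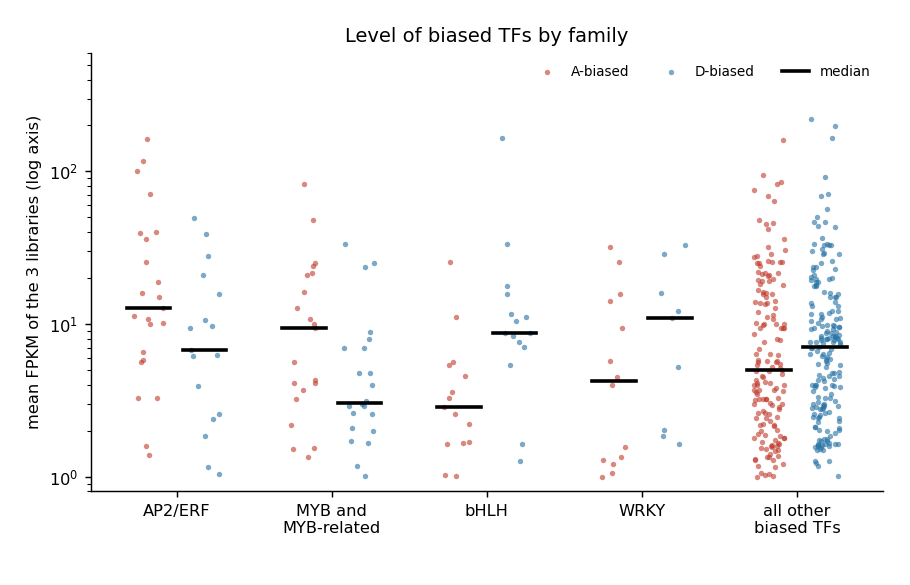
Mean FPKM of the 3 libraries (log axis) of each biased TF by family and subgenome of bias, with black bars at the medians. The AP2/ERF medians are 12.7 FPKM for A-biased and 6.72 for D-biased genes, and the 3 AP2/ERF genes above 100 FPKM stand clear of all MYB and WRKY factors. The highest bHLH factor, at 166 FPKM, and the highest of all other biased TFs, at 220 FPKM, lie above all 3.

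The replicate spread of the members was close to that of other genes of their level. The coefficient of variation (SD over mean) had a median of 11.4%, against 12.5% for all genes with a mean FPKM of 1 or more. It was 9.49% in members at 10 FPKM or more, against 8.93% for all genes of this class, and 13.6% in members between 1 and 10 FPKM, against 15.4%. The median was 6.34% over replicates 1 and 2 alone, and 12.4% and 8.50% without replicate 1 and without replicate 2. The steadiest members were Gh_A05G3751, at 10.2, 10.2 and 10.1 FPKM with a coefficient of 0.678%, and Gh_D12G2135, at 20.7, 21.2 and 21.1 FPKM with 1.19%. The largest coefficients were 31.9% in Gh_D09G0781, 31.5% in Gh_D01G1551 and 29.2% in Gh_A07G0221, all below 2 FPKM. A coefficient above 20% was found in 7 of the 40 members, against a background of 25.3% of the genes with a mean FPKM of 1 or more. Of these 7 members, 5 had a mean FPKM under 3. The exceptions were Gh_A05G0089, at 10.4, 11.4 and 16.5 FPKM, and Gh_D12G0951, at 9.15, 9.39 and 13.2, both of which were clearly apart in replicate 3.

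**Figure D3:**
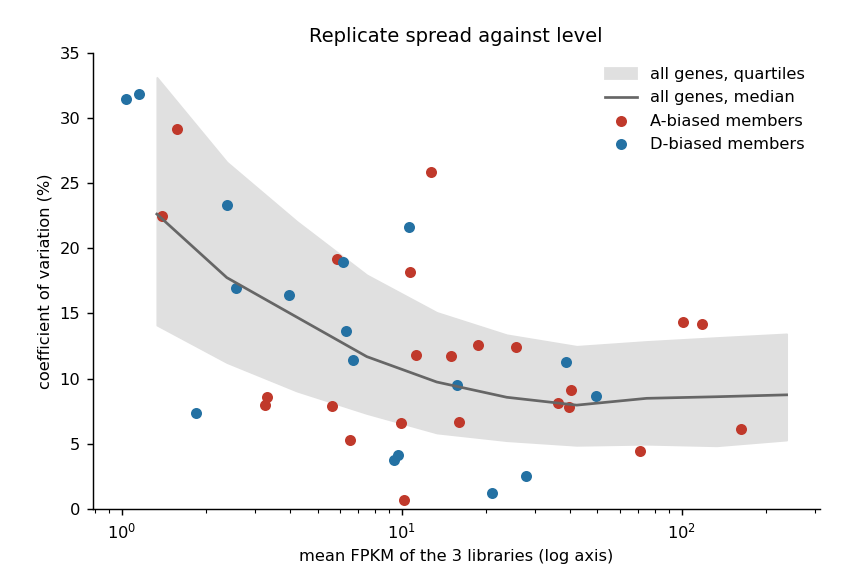
Coefficient of variation over the 3 libraries against mean FPKM (log axis) for the members, coloured by subgenome of bias, with the median (line) and quartiles (band) of all genes by level. Of the 40 members, 22 lie within the band, 11 below and 7 above it, and the highest values, up to 31.9%, are those of the weakest members together with Gh_A05G0089 at 25.8% and Gh_D12G0951 at 21.7%.

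The libraries themselves differed in the levels of the biased AP2/ERF factors. The members were called from these same libraries, so their pattern over the libraries is not independent of that choice and is a description. Replicate 3 was the highest library for 24 of the 40 members (60.0%), against a background of 32.5% of all genes with a mean FPKM of 1 or more and 46.2% of the other biased TFs. It was the lowest for 9 members (22.5%), against a background of 49.9%. The median member stood 1.13 times higher in replicate 3 than in the mean of replicates 1 and 2, whereas the median of all genes with a mean FPKM of 1 or more stood at 0.944 times. In 15 members (37.5%) the excess was over 1.2-fold, against a background of 14.4%. Replicate 2 was the lowest library for 18 members (45.0%), against a background of 28.3%, but this share was close to the 40.1% of the other biased TFs and the 44.2% of MYB factors.

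Replicate 3 was above the mean of replicates 1 and 2 in 29 members (72.5%), against a background of 40.7% and 58.1% of the other biased TFs. This was seen in both subgenomes, in 16 of 23 A-biased and 13 of 17 D-biased members. It was found in 28 of 36 ERF members, with a median ratio of 1.15, but in 1 of 4 AP2 members, with a median ratio of 0.897. All 7 hubs were above their mean of replicates 1 and 2, with a median ratio of 1.21, from 1.02 in Gh_D11G1436 to 1.65 in Gh_D09G0781. Besides Gh_D09G0781, the largest excesses were in Gh_A05G0089 (1.52 times), Gh_D12G0951 (1.43 times) and Gh_D09G1737, which had 1.86, 2.32 and 2.96 FPKM. The clearest opposite case was Gh_A07G0221, whose replicate 3 was 0.607 times the mean of the other libraries. Gh_A10G0471, the most abundant member, was also lowest in replicate 3. The median ratios of MYB (1.08), bHLH (1.001) and WRKY factors (1.03) lay between those of the AP2/ERF members and of all genes.

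Replicate 3 also had the largest FPKM sum, and its 10 most abundant genes held 9.35% of it, against 8.00% and 8.03% in replicates 1 and 2. When each library was centred on the median of all genes with a mean FPKM of 1 or more, replicate 3 was the highest for 31 members (77.5%). The background was 41.1%, and the share was 57.0% among the other biased TFs. When each library was scaled to the same FPKM sum, it was the highest for 19 members (47.5%, background 21.8%). The members therefore exceeded the background under each scaling, by different amounts. In the study's sequencing summary, replicate 3 had the lowest shares of mapped and of uniquely mapped reads of the 3 leaf libraries. A single condition with 3 libraries allows no test of the excess of the members in replicate 3, and its source was not tested.

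**Figure D4:**
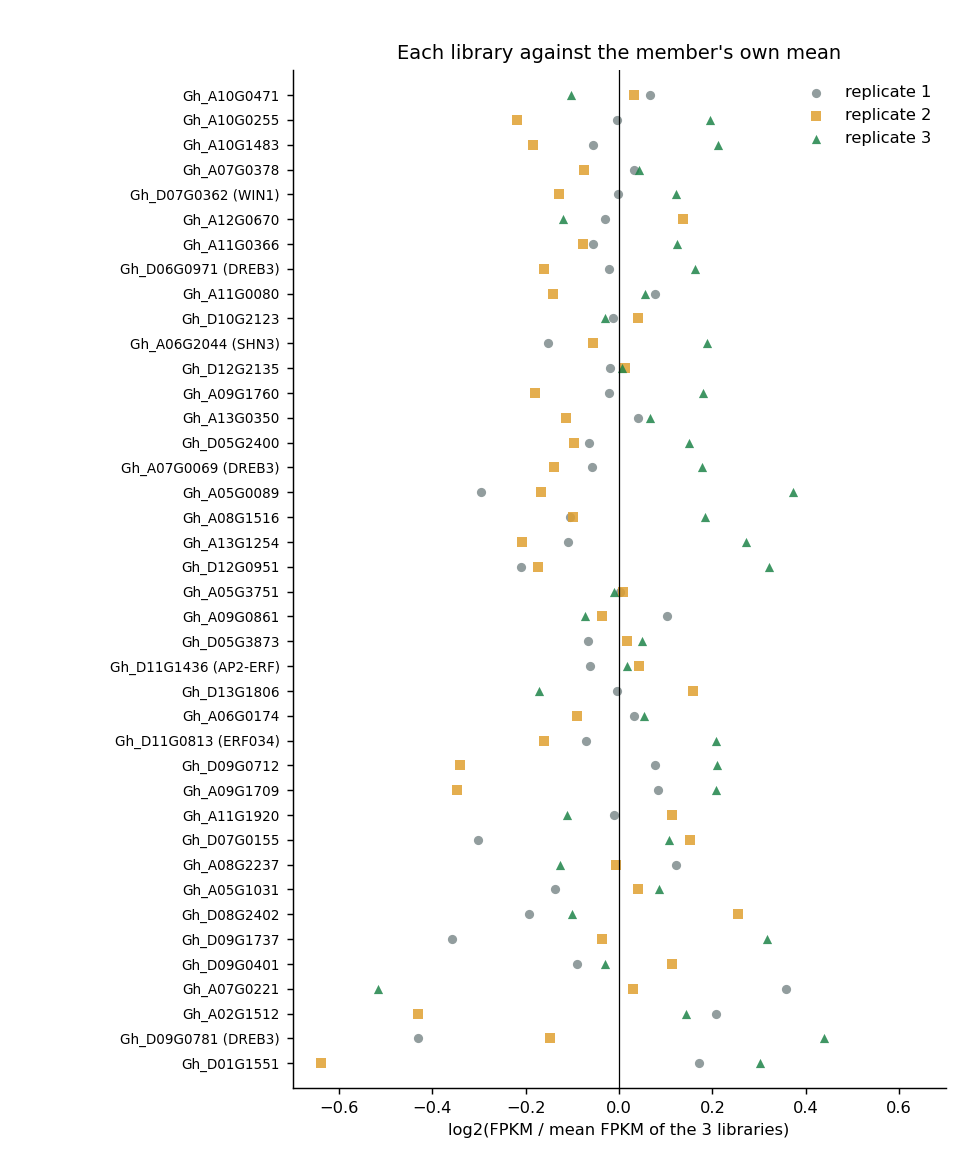
FPKM of each library divided by the member's mean over the 3 libraries, on a log2 scale, with members ordered by mean FPKM from top to bottom. Triangles (replicate 3) lie to the right of both other libraries in 24 of the 40 members, and squares (replicate 2) are the leftmost in 18.

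The members were scattered over the genome. They lay on 20 of the 26 chromosomes, 10 in each subgenome, with at most 4 on a chromosome (D09). No members stood side by side. The closest ones on a chromosome were 51 genes apart in the order of the identifiers, which follows position in all 1854 consecutive genes for which positions were at hand. The 5 genes on each side of the members, 400 genes in all, had a median FPKM of 2.76, and 62.5% of them had a mean FPKM of 1 or more. The corresponding values for all 66434 genes with an A or D identifier were 2.36 and 60.3%. The surroundings of the members were thus of ordinary level, and only 2 of the 400 flanking genes were themselves on the list of biased TFs.

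Of the 40 members, 34 were above the median of their own flanking genes, against a background of 76.7% of the genes with a mean FPKM of 1 or more, and 8 were above all 10 of them, against a background of 14.7%. The members had passed a limit on FPKM and the flanking genes had not, so most would exceed their flanks by selection. The 8, counted by mean FPKM, included Gh_A07G0378, WIN1, Gh_A12G0670, and the DREB3 genes Gh_D06G0971 and Gh_A07G0069. For Gh_A07G0069 this held in replicate 3 only. Its neighbour Gh_A07G0064 had 16.3, 16.5 and 12.1 FPKM in replicates 1, 2 and 3, against 14.5, 13.7 and 17.0. Gh_A12G0670 stood at 40.2 FPKM in a weakly expressed stretch where the flanking genes had a median of 0.408 and a highest mean of 4.59. By contrast, the top 3 genes of chromosome A10 each had a neighbour with a still higher mean FPKM, among them Gh_A10G0259 beside Gh_A10G0255, at 333, 321 and 311 FPKM in replicates 1, 2 and 3. Gh_D01G1551, with a mean of 1.03 FPKM, was below its flanking median of 4.21 and above only 2 of its 10 flanking genes.

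**Figure D5:**
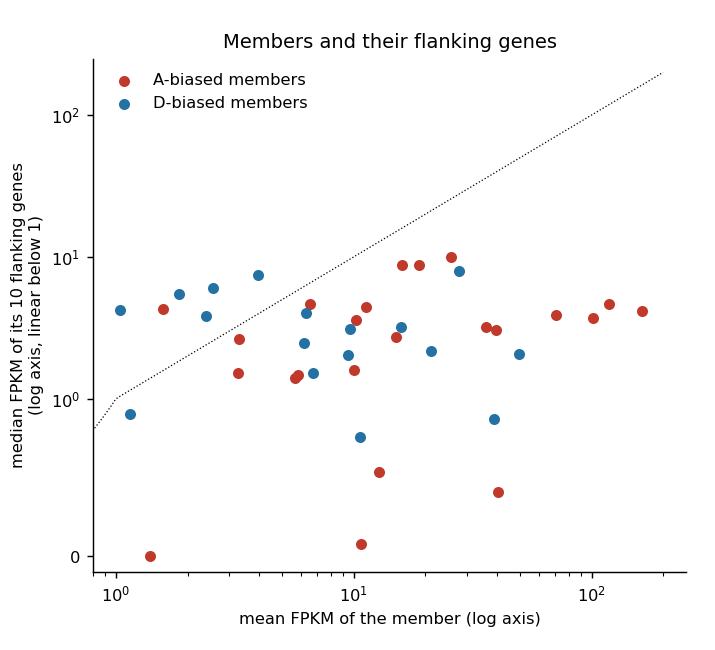
Median FPKM of the 10 flanking genes (5 on each side in identifier order) against the mean FPKM of each member, both on log axes (linear below 1 on the vertical axis), with the dotted line at equality. Flanking medians reach 9.99 FPKM at most, beside Gh_A06G2044, and 4.65 FPKM beside the 3 members above 100 FPKM.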

How the data were processed

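Reads were trimmed by the authors (fastp) and aligned with Hisat2 to the cotton reference, and StringTie gave an FPKM for each gene of the CottonGen annotation. Tool versions are not given in the sources used here. The deposited FPKM values of 3 TM-1 leaf libraries, grouped by their labels, were used unchanged. Reads that fit both homeologs may have been assigned to either, which FPKM does not show, and this can blur differences between homeologs. The deposited files hold FPKM without counts, and read totals and gene lengths were not used here, so no count interval is given.

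The members, their family, mark and bias came from the study's list of biased TFs, called on these libraries, and names from its network. Of the gene identifiers, 0 matched the RefSeq gene table (Gossypium_hirsutum_v2.1), so no other name was used. Members, lists and comparisons were chosen with earlier results of these data known. Genes given with all library values were the hubs, the 5 highest and 5 lowest members, the AP2 subfamily, members with H3K27me3 or no listed mark, the 3 with the largest coefficients of variation and the single known homeolog. Others were named after their values were seen.

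Means, SDs, coefficients of variation, percentiles and log2(FPKM + 1) medians were computed in Python 3.11.15 with numpy 2.4.6 and pandas 2.3.3, and figures were drawn with matplotlib 3.10.9. FPKM of 1 was taken as expressed. Centring and spread were checked on simulated libraries. No test was run, since there was a single condition and genes are not replicates. Alternatives covered the pseudocount, filters, library scaling, the genes ranked, the flanking window and leaving out each library. Sequences, ChIP-seq libraries and the other homeologs were not used here.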

Additional observations from a re-analysis of the deposited data

How the results depend on the processing

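No paired analysis was possible because the 3 libraries form a single group. Of 52 alternatives tried over 9 results, 41 stayed within the spread between libraries (or within 1.5 times, for counts). Medians of FPKM, percentiles, counts and coefficients of variation have no direction that could change. Among the alternatives for level differences and the log2 ratio, 0 changed direction. The percentile of the median member was 63.3 among genes with a mean FPKM of 1 or more, in place of 78.7 among all genes. The difference of A-biased over D-biased members was 0.40 among members at FPKM 1 or more in every library. The gap of H3K4me3 alone over H3K27me3 was 1.46 with a pseudocount of 0.1, 0.83 in the ERF subfamily, 0.83 among members at FPKM 1 or more in every library and, chosen after seeing the data, 0.71 with Gh_A06G2044 counted under H3K27me3. The log2 ratio of Gh_D01G1551 to Gh_A01G1314 was 1.89 and 1.22 with pseudocounts of 0.1 and 0.42. Leaving out a library gave median coefficients of variation from 6.34% to 12.4%, the lowest without replicate 3. Also chosen after seeing the data, replicate 3 was highest by at least 10% for 15 members (background 18.8%), and flanking genes at FPKM 1 or more had a median of 6.33. Counting error was not separated from the spread between libraries, whose 3 largest values were in members below FPKM 2.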
